A study of Vernicia fordii and Jatropha curcas with 4 samples.

Results

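Library 8 and library 7 are the 2 RNA sequencing libraries of developing seeds of Vernicia fordii, the tung tree, in a series that also sequenced Jatropha curcas. They were compared locus by locus: the RPKM (reads scaled to contig length and to the library's mapped reads) of all contigs matched to the same Arabidopsis locus code was summed, and a locus was kept if one of the libraries held 10 RPKM or more. This gave 8083 of the 13333 loci in the Vernicia table, and 10178 loci reached the same level in either species. The seeds came from 3-year-old trees, and the labels give their source as endosperm. One Vernicia library was made at 135 days after pollination, in the fast stage of oil accumulation, and the other at 90 days, in its early stage. The RNA of 3 seeds was pooled for each library, so there is 1 library per stage, no measure of the spread between seeds, and no test. The labels do not tie the column numbers 8 and 7 to the stages, and the study's paper was not used here. No difference below is therefore given a direction in time, and no column is known to be the 135-day or the 90-day library.

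Tung seeds store oil and protein in their endosperm. Tung oil is rich in alpha-eleostearic acid, a conjugated fatty acid that lets the oil dry to a hard film. In filling seeds a small set of storage transcripts is known to become very abundant, and in a measure scaled to the library total such transcripts lower the values of all others. The files pair contigs with locus codes only, and neither gene names nor functions come with the codes. The seed programmes behind the differences, and markers of the labelled tissue, are therefore not described here, and loci are given as groups by level, direction, contigs and genome of the code. Only the 2 highest and the 2 lowest loci are given by their code.

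The 8083 loci held 560985 RPKM in library 8 and 513351 RPKM in library 7, which was 74.6% and 75.9% of all RPKM in the Vernicia table. Read totals are unknown, since the files give no counts, so the counting error of single loci cannot be stated. A level of 10 RPKM or more was reached in both libraries by 5794 loci, in library 8 alone by 504 and in library 7 alone by 1785. Loci that entered through 1 library alone tend to differ because of the threshold itself. Just inside it, 379 loci had a higher value of 10 to 11 RPKM and a median log2 difference of -0.52, and just outside it, 399 loci at 9 to 10 RPKM had a median of -0.60. Both groups were set by the higher value, so these medians do not measure the effect of entering through 1 library alone.

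More loci were lower than higher in library 8 as the values were deposited, and this balance turned with the scaling. Differences were taken as log2((library 8 + 1)/(library 7 + 1)), which understates the change of low loci. At least 2-fold higher in library 8 were 675 loci (8.35% of the loci compared), and at least 2-fold lower were 1629 (20.2%). The other 5779 loci were less than 2-fold apart. The median locus had a log2 difference of -0.52, and 6172 loci (76.4%) were below 0. Of the 5794 loci at 10 RPKM or more in both libraries, 325 were at least 2-fold higher and 810 lower. The rest of the 675 and 1629 loci had passed the filter only through the library where they are high. A shift shared by most loci was estimated from the median ratio of library 8 to library 7 over 11876 loci with at least 1 RPKM in both libraries, which was 0.692. After division of library 8 by this ratio, 1049 loci (13.0%) were at least 2-fold higher and 605 (7.48%) at least 2-fold lower, with a median of -0.02. Lower loci thus made up 70.7% of the differing loci as deposited and 36.6% after median-ratio scaling. This scaling takes away whatever most loci have in common, be it a difference in the seed or an effect of the library totals, and these cannot be told apart here.

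**Figure D1:**
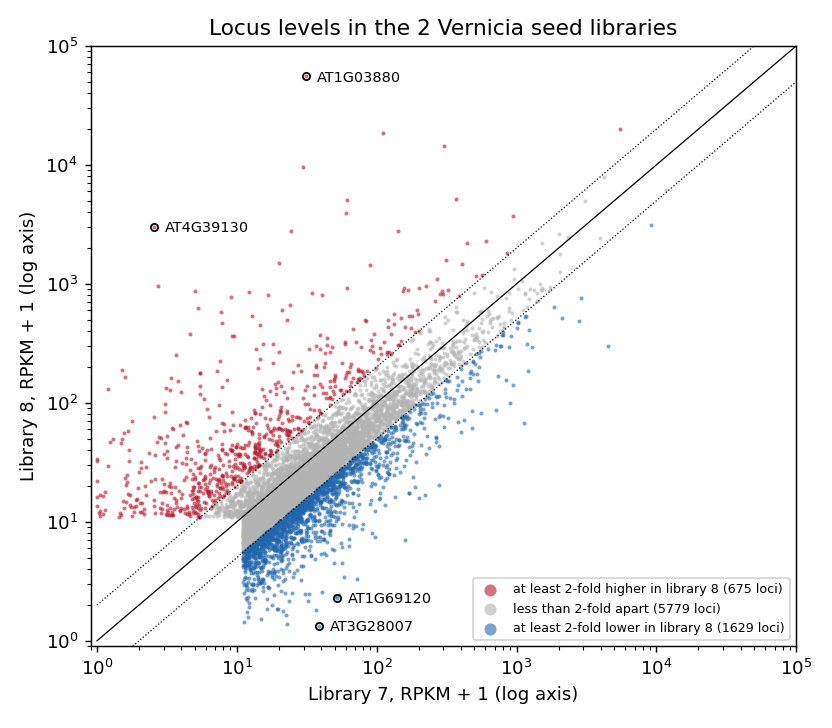
Each point is 1 of 8083 Arabidopsis-matched loci, with its summed RPKM + 1 in library 8 on the vertical log axis and in library 7 on the horizontal log axis, as deposited. The solid line marks equal values and the dotted lines a 2-fold difference of RPKM + 1; 675 loci lie at or above the upper dotted line and 1629 at or below the lower one, and the loci farthest from equality lie above it.

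The largest differences ran the other way from the bulk. At least 16-fold higher in library 8 were 77 loci (0.953%) as deposited, against 10 (0.124%) at least 16-fold lower. After median-ratio scaling these counts were 107 (1.32%) and 7 (0.0866%). At 4-fold, 294 loci (3.64%) were higher and 272 (3.37%) lower as deposited, and 468 (5.79%) and 119 (1.47%) after scaling. The 99th percentile of the log2 differences was 3.92 and the 1st percentile -2.69, and the extremes were 10.78 and -4.86. The 25th and 75th percentiles were -0.90 and -0.04, so the middle of the distribution was narrow beside its upper tail.

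**Figure D2:**
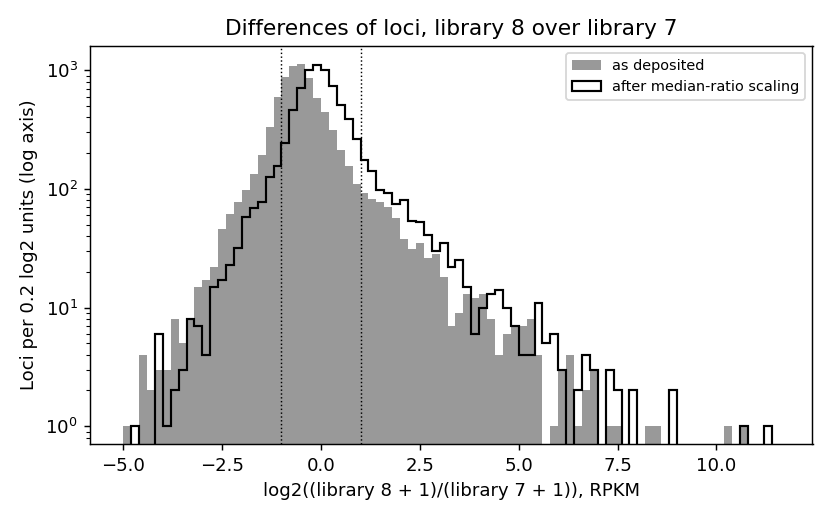
Number of loci (log axis) by log2 difference of library 8 over library 7, in steps of 0.2, as deposited (grey) and after median-ratio scaling (black outline), with dotted lines at a 2-fold difference. The peak lies below 0 as deposited, with a median of -0.52, and near 0 after scaling, with a median of -0.02, and in both the upper tail is the longer one.

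AT1G03880 had the highest log2 difference of all loci compared at pseudocounts of 1 and 5 RPKM, and ranked 2nd, behind AT4G39130, at 0.1 RPKM, where both were at 10.83. It summed to 55441.10 RPKM in library 8 and to 30.46 RPKM in library 7, a log2 difference of 10.78 as deposited and 11.31 after median-ratio scaling. Both of its contigs showed this, with 28250.88 and 27190.22 RPKM in library 8 against 15.69 and 14.77 RPKM in library 7. Such similar contigs may be near-identical copies between which the counting split reads, which was not tested. The single contig values are therefore uncertain, and the 2 contigs cannot be taken as independent support. This locus alone held 9.88% of the RPKM of all loci compared in library 8, where it ranked 1st, and 0.00593% in library 7.

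AT4G39130 followed, with 3026.88 RPKM in library 8 and 1.56 RPKM in library 7 from a single contig. Its log2 difference was 10.21, or 10.74 after scaling, and it moved to 8.85 with a pseudocount of 5 RPKM because of its low value in library 7. It ranked 14th by level in library 8.

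At the other end, AT3G28007 was listed at 0.34 RPKM in library 8 and at 37.78 RPKM in library 7, a log2 difference of -4.86, or -4.70 after scaling. AT1G69120 had 1.29 RPKM in library 8 and 51.46 RPKM in library 7, a log2 difference of -4.52, or -4.19 after scaling. Each of these rests on 1 contig, as AT4G39130 does. Their levels in library 7 were far below those of AT1G03880 and AT4G39130 in library 8. With a pseudocount of 0.1 RPKM their differences were -6.43 for AT3G28007 and -5.21 for AT1G69120. With 5 RPKM they were -3.0 and -3.17, so their order turned, and other loci then ranked lower than either.

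The 2 ends of the ranking differed in level. A place at either end itself demands a high level in 1 library and a low one in the other. With the pseudocount, a larger difference also demands a higher level, so these levels are given as a description. The 10 highest loci had a median of 1867 RPKM in library 8 and 4.16 RPKM in library 7, and they made up 16.5% and 0.040% of the RPKM of the loci compared. The 10 lowest loci had a median of 1.42 RPKM in library 8 and 52.0 RPKM in library 7, or 0.0148% and 0.324% of the RPKM. Among the 100 highest loci, with log2 differences of 3.64 to 10.78, the medians were 131 RPKM in library 8 and 2.96 RPKM in library 7. Among the 100 lowest, with differences of -4.86 to -2.55, the medians were 4.33 RPKM in library 8 and 48.0 RPKM in library 7. A single contig stood behind 47 of the 100 highest and 74 of the 100 lowest loci, against 5254 of all 8083 loci compared. Median-ratio scaling divides every locus by the same number and can reorder loci only through the pseudocount, so 100 of the 100 highest and 95 of the 100 lowest loci stayed, largely by construction. A pseudocount of 5 RPKM kept 85 and 71 of them, and one of 0.1 RPKM kept 89 and 87.

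Loci at 10 RPKM or more in 1 library and nearly absent from the other were counted in both directions. Of the 8083 loci compared, 47 had at least 10 RPKM in library 8 and under 1 RPKM in library 7. The opposite pattern was found at 13. At least 100 RPKM in library 8 and under 10 RPKM in library 7 were found at 28 loci, and the opposite at 1. All these loci passed the filter only through the library where they are high. In all, 504 loci passed it through library 8 alone and 1785 through library 7 alone. The counts are therefore given as a description. Listed at 0 were 0 loci in library 8 and 5 in library 7. These limits apply to the values as deposited, and no such count was made after scaling.

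A few loci held a larger part of library 8 than of library 7. The 10 most abundant loci held 26.3% of the RPKM of the loci compared in library 8 and 9.78% in library 7. For the 100 most abundant the shares were 44.2% and 27.0%, and for the 500 most abundant 62.9% and 48.7%. The lists overlapped in part, with 4 of the top 10, 49 of the top 100 and 331 of the top 500 loci in common. For comparison, an excess of 2-fold or more in library 8 was seen at 8.35% of all 8083 loci and a deficit at 20.2%. After median-ratio scaling these shares were 13.0% and 7.48%. Among the 100 most abundant loci of library 8, 50 had a 2-fold or larger excess there and 3 a deficit as deposited. Among the 100 most abundant loci of library 7, 5 had such an excess in library 8 and 31 a deficit. After median-ratio scaling the counts were 59 and 3 for the list of library 8, and 10 and 17 for that of library 7. A difference of this kind is built into lists chosen by the level in 1 library, so these counts are given as a description. The shares held by the top loci do not depend on the scaling, but these counts do.

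**Figure D3:**
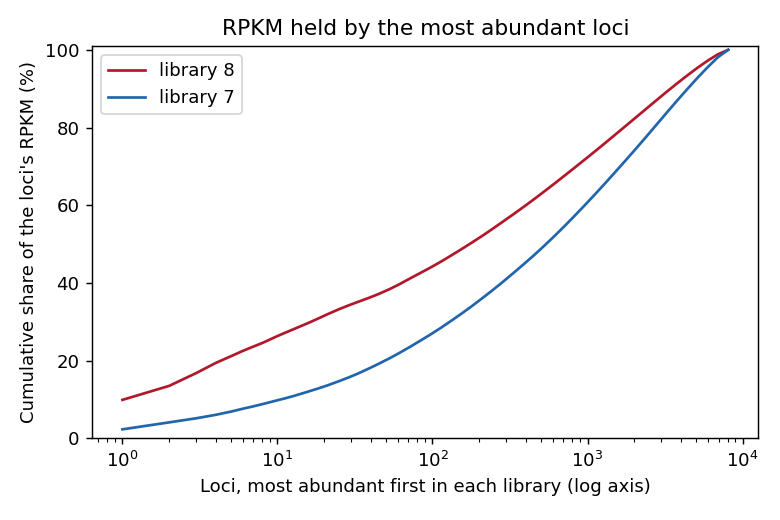
Cumulative share of the RPKM of the 8083 loci (vertical axis, percent) against the number of loci (log axis), ordered by level within library 8 (red) and within library 7 (blue). The curve of library 8 lies above that of library 7, at 26.3% against 9.78% for the top 10 loci and 44.2% against 27.0% for the top 100.

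The loci higher in library 8 also held far more of its RPKM than their number would give. The 675 loci at least 2-fold higher in library 8 held 41.2% of the RPKM of the loci compared in library 8 and 5.30% in library 7. The 1629 lower loci held 7.79% in library 8 and 26.2% in library 7, and the 5779 loci in between held 51.0% and 68.5%. A few loci weigh heavily in the 41.2%: AT1G03880 alone held 9.88% in library 8, and the 10 loci with the highest differences 16.5%. The median level in library 8 was 41.9 RPKM for the 675 higher loci, 20.1 RPKM for those in between and 9.86 RPKM for the lower ones. After median-ratio scaling the 1049 higher loci held 48.6% in library 8 and 10.2% in library 7, and the 605 lower loci 2.93% and 13.9%. The choice of these loci by their difference fixes the direction of such shares but not their size.

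The share of loci higher in library 8 was larger among abundant loci. By the mean of both libraries, 265 of 3591 loci under 20 RPKM (7.38%) were at least 2-fold higher and 824 (22.9%) lower. Between 100 and 200 RPKM, 69 of 519 loci (13.3%) were higher and 84 (16.2%) lower. Between 500 and 1000 RPKM, 17 of 76 loci (22.4%) were higher and 19 (25%) lower, the largest lower share of the 7 classes. At 1000 RPKM or more, 15 of 44 loci (34.1%) were higher and 6 (13.6%) lower. The median log2 difference was -0.60 in the lowest class, -0.47 between 500 and 1000 RPKM and 0.02 in the highest, so neither it nor the lower share followed a steady trend. After median-ratio scaling 43.2% of the 44 most abundant loci were higher and 13.6% lower, against 11.1% and 8.66% of the loci under 20 RPKM. A mean that includes the higher value favours loci with a large difference in either direction in the upper classes.

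Contigs matched to the same locus did not always move together. Of the 8083 loci, 5254 had 1 contig and 2829 had more, up to 109. At 921 loci at least 2 contigs reached 10 RPKM in either library, 2038 contigs in all. The log2 differences of the contigs of such a locus spanned a median of 0.68, with quartiles of 0.32 and 1.44, and at 340 loci (36.9%) the span was over 1. At 51 loci all such contigs had an excess of 2-fold or more in library 8, and at 69 loci all had a deficit of that size. After median-ratio scaling these numbers were 80 and 29, so the balance turned. At 411 loci none of them was 2-fold apart. Of all 8763 contigs with a code at 10 RPKM or more in either library, 9.75% were higher and 21.0% lower. After scaling these shares were 14.4% and 8.54%. How often unrelated contigs would move together or oppose each other was not worked out. At 41 loci (4.45%) at least 1 contig was 2-fold higher and another 2-fold lower, and after median-ratio scaling this held at 27 loci. Of these 41 loci, the summed value was at least 2-fold higher at 7 and at least 2-fold lower at 4, so summing hid opposite contigs at most of them. Contigs of a locus can be fragments of 1 transcript or transcripts of different genes with the same nearest Arabidopsis locus, and the files do not say which.

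**Figure D4:**
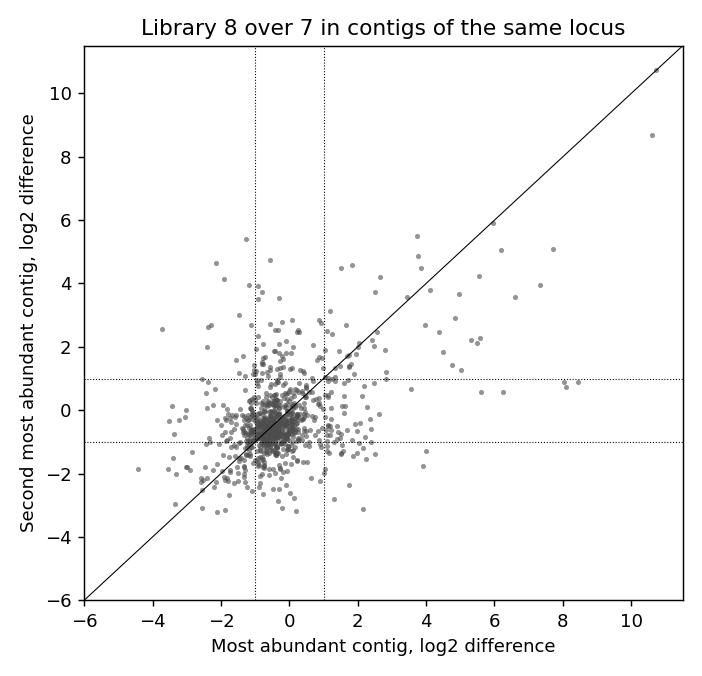
Log2 difference of library 8 over library 7 in the second most abundant contig (vertical axis) against the most abundant contig (horizontal axis) of the 921 loci with at least 2 contigs at 10 RPKM or more. The solid line marks equal differences and the dotted lines a 2-fold difference; most points lie near the centre, and across loci Pearson's r was 0.48.

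These 921 loci share both libraries and are no replicates of each other. Over them, the difference of the most abundant contig and that of the second correlated with a Pearson r of 0.48 and, by rank, a Spearman rho of 0.30.

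The locus code names the Arabidopsis genome that carries the locus: a chromosome numbered 1 to 5, or the plastid or mitochondrial genome. Over the 5 nuclear chromosomes the median log2 difference lay between -0.55 and -0.51, and the share of loci at least 2-fold higher in library 8 between 8.08% and 8.59%. The 21 loci with a plastid code had a median of -0.19 and none was 2-fold apart, with differences from -0.88 to 0.43. They summed to 2452 RPKM in library 8 and 3148 RPKM in library 7. The 20 loci with a mitochondrial code had a median of -0.50, with 2 higher and 1 lower, or 3 and 0 after median-ratio scaling, and summed to 6834 RPKM in library 8 and 12478 RPKM in library 7. After median-ratio scaling the plastid codes had a median of 0.32, and still none of them was 2-fold apart. Over all loci compared 8.35% were higher and 20.2% lower as deposited, or 13.0% and 7.48% after scaling. The libraries were made from polyadenylated RNA, and whether these contigs came from the organelles or from nuclear copies was not tested.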

How the data were processed

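CTAB extraction, selection of polyadenylated RNA and directional library making are stated per the labels' protocols. The authors deposited RPKM values per assembled contig, rounded to 2 decimals, with TAIR10 locus codes; the unit is taken from the deposited table's name. The submitters' processing notes name Bowtie and edgeR but no roles. The sources used here give neither the assembler nor the counting nor the search behind the codes.

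The 21611 Vernicia contigs with a code, of 49582, were summed by code as deposited. One code, of 3 contigs, had 1 digit more than the others and was kept. With 1 library per column no test was run. A difference counts from 2-fold on, at a pseudocount of 1 RPKM. The rule for loci given by code was the 2 highest and 2 lowest, since no table with names or functions for the codes was used here. Gene lists written for the comparison were dropped for the same reason. The members and lists were chosen with earlier results of these data known. The steps were run on simulated data with a shared shift and with changes planted in loci of higher level only. That run checks the arithmetic and does not show how well the real differences were found. Alternatives were other scalings, pseudocounts, filters, thresholds and contig choices. Python 3.11.15, pandas 2.3.3 and NumPy 2.4.6 were used.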

Additional observations from a re-analysis of the deposited data

How the results depend on the processing

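As deposited, 675 loci were at least 2-fold higher and 1629 lower in library 8, with a median log2 difference of -0.52. Median-ratio scaling gave 1049, 605 and -0.02. Equal totals over all contigs gave 601 higher and 2206 lower loci and moved the median to -0.67. Equal totals without the 100 most abundant loci of either library gave 846 lower loci and a median of -0.22. A pseudocount of 5 RPKM gave 1002 lower loci, and one of 0.1 RPKM gave 1832. At 50 RPKM or more, 301 of 2328 loci were higher and 480 lower. Of 5254 loci with 1 contig, 380 were higher and 1032 lower. At 4-fold, 294 of 8083 loci were higher and 272 lower. Fewer loci entered the first pair and the second, and the limit was stricter in the third. At 10 RPKM or more in both libraries, a choice made after seeing the data, 325 of 5794 loci were higher and 810 lower. The cause of the other shifts was not tested. Lower loci outnumbered higher ones except after median-ratio scaling, at 4-fold (272 against 294) and with the 100 most abundant loci left out of the totals (846 against 863). The 4 loci given by code kept their direction wherever they entered, which their choice as the extremes of the ranking largely fixed. Alternatives planned for gene lists were not run, because no list was used. No paired analysis was possible because there is 1 library per column and no result comes from a test.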

Other observations

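As deposited, higher contigs outnumbered lower ones in library 8 among contigs without a locus code, and lower ones outnumbered higher among those with a code. After median-ratio scaling higher contigs outnumbered lower ones in both classes. Among contigs without a code, 1342 reached 10 RPKM in one of the libraries. Of these, 397 (29.6%) had an excess of 2-fold or more in library 8 and 214 (15.9%) a deficit, with a median log2 difference of 0.10. Of 8763 contigs with a code at this level, 854 (9.75%) were higher and 1837 (21.0%) lower, with a median of -0.51. After the median-ratio scaling of the loci, 39.6% of the contigs without a code were higher and 9.02% lower, against 14.4% and 8.54% of those with one. The 1342 contigs without a code at this level summed to 144249 RPKM in library 8 and 105706 RPKM in library 7. Contigs without a code take no part in the comparison of loci, and what they encode is not given in the files.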
